A study of Mus musculus with 6 samples.

Results

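Circular RNAs (circRNAs) are closed RNA rings made when a downstream splice donor is joined to an upstream acceptor, a reaction called back-splicing. Exonic circRNAs keep only exon sequence, so a ring can be much shorter than the stretch of gene between its ends. The rings lack free ends, resist exonucleases such as RNase R, accumulate in the brain and can bind proteins or microRNAs. The 204 circRNAs described here were annotated as exonic and had a length of at most 300 nt. They were chosen by annotated type and length from the 1734 circRNAs whose annotation was held, 1339 of which were exonic. The choice was made with earlier results of these data known. The short circRNAs were compared with the 1135 longer exonic circRNAs of the same annotation. The whole series tested 13420 circRNAs, and all 204 short ones were among them.

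The cells were microglia, the macrophages that live in brain tissue, isolated from the cortex of male mice of 6 months of age with magnetic beads carrying an antibody against CD11b, a myeloid surface protein. The groups were 3 samples from wild-type (WT) C57BL/6J mice and 3 from APP/PS1 mice, which carry a chimeric mouse/human amyloid precursor protein with the Swedish mutation and a mutant human presenilin, a model of amyloid deposition. Each group had 3 mice, which is 1 mouse per sample, and the promoter of the transgenes is not given in the sources used here. RNA was digested with RNase R and labelled with 1 dye, and every sample had its own array, on which each circRNA had 1 spot. All 6 arrays were read in 1 scan of 1 slide. Row 1 held every WT array and row 2 every APP/PS1 array, so an effect of the row would look like an effect of genotype. Values below are log2 of the background-corrected signal after quantile normalization, listed in the order of replicates 1, 2 and 3. With 3 arrays per group their precision is limited, and fewer cells of a type cannot be told apart from less RNA per cell.

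The short circRNAs came from 200 host genes on 20 chromosomes, 108 on the plus strand. RefSeq genes of the GRCm38.p6 assembly named the host of 202 of them, 194 by transcript accession, and 199 of the circRNAs came from protein-coding genes. The annotation names no genome build, but 200 of the 202 lay inside their named host gene in GRCm38.p6. Positions are given as annotated, counted from 1. The host genes had a median length of 62035 nt, against 90590 nt for hosts of longer exonic circRNAs. Within the host gene, the first base of a short circRNA lay at a median of 51.4% of the gene's length from its start, with quartiles of 27.5% and 67.3%. The corresponding median for longer exonic circRNAs was 44.2%. A small nucleolar RNA gene, Snord15a, hosted 1 of the short circRNAs, and long noncoding RNA genes such as Pantr1 hosted 2.

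The back-splice acceptor of 1 short circRNA could be shown as sequence, because its first base was also a RefSeq transcript start and lay in a RefSeq promoter window. This was circPhf21a (mmu_circRNA_34079, 243 nt), from the gene of a reader of unmethylated histone tails in a demethylase complex. The sequence below is chr2:92221452-92221501 of GRCm38.p6, plus strand, with the 20 bases before the circRNA in lower case and its first 30 bases in capitals.
circPhf21a acceptor: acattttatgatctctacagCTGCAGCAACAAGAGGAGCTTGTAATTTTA
The bases just before the circRNA were AG, the letters of a standard splice acceptor, which stood at that place in 6.07% of the 32851 windows on their own strand. The normalized signal of circPhf21a was 3.67, 3.55 and 3.52 in WT and 3.79, 3.12 and 3.13 in APP/PS1, so the groups overlapped. No microRNA hairpin of RefSeq lay within the span of any short circRNA (0 of 204).

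Genomic span, the distance between the ends of a circRNA in the genome, differed between short and longer exonic circRNAs by more than their lengths did. The short circRNAs had a median length of 238.5 nt and a median span of 2520 nt, with quartiles of 689.3 and 6366 nt. The longer ones had a median length of 707 nt and a median span of 14543 nt. The span was a median of 11.1 times the length in short circRNAs and 17.6 times the length in longer ones. A short circRNA covered a median of 4.5% of its host gene, against 17.5% for a longer one. These are descriptions of annotated positions, for which no test was made.

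Span equalled length, as in a ring without an intron between its ends, in 23 of the 204 short circRNAs (11.3%) and in 36 of the 1135 longer ones (3.17%). The share was smaller in each longer class of the short ones. It was 7 of 13 at up to 150 nt, 9 of 41 from there to 200 nt, 4 of 63 from there to 250 nt and 3 of 87 above that. The median span over the same classes was 148, 1631, 2076 and 3913 nt, and the Spearman correlation of length with span across the 204 circRNAs, which are not independent replicates, was 0.34. The annotation took 43 short circRNAs (21.1%) and 126 longer ones (11.1%) from the circBase database, and the others from earlier publications.

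**Figure D1:**
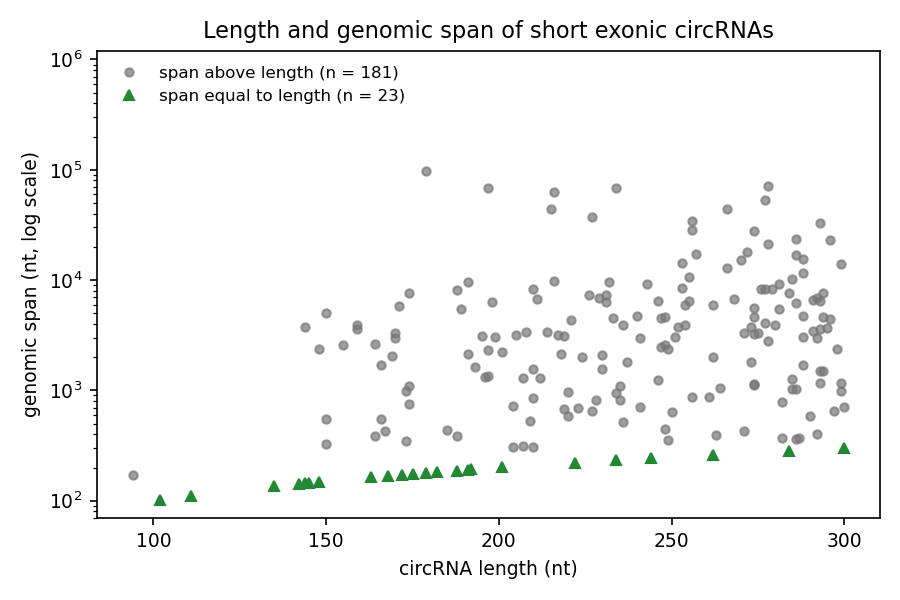
Length (nt, horizontal axis) and genomic span (nt, vertical log axis) of the 204 short exonic circRNAs, 1 point each. Green triangles mark the 23 whose span equals their length, and grey points reach 97696 nt.

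The longest span belonged to the circRNA of Ncald, which encodes a neuronal calcium sensor. CircNcald (mmu_circRNA_28457) was 179 nt long and spanned 97696 nt on chromosome 15, from 37563391 to 37661086. Circles of 278, 234, 197 and 216 nt from Dock3, Nrcam, Hivep1 and Slit3 spanned 70805, 68803, 67814 and 63336 nt. Nrcam encodes a neuronal adhesion molecule and Slit3 a secreted guidance cue. The shortest circle, of 94 nt, came from Mrps9, a protein of the small mitochondrial ribosomal subunit, and spanned 172 nt. Other very short rings, from Aig1, Mfn1 and Zeb2, were 102, 135 and 142 nt long and had spans equal to their lengths. CircMrps9 gave 5.59, 5.68 and 5.60 in WT and 5.69, 5.94 and 5.47 in APP/PS1, which overlapped.

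The short circRNAs were measured about as well as the longer ones. Well above background on all 6 arrays were 174 of the 204 (85.3%), against 968 of the 1135 longer ones (85.3%). Another 20 short circRNAs were well above background on 5 arrays, 5 on 4 arrays and 5 on 3 arrays, the smallest number kept. On single arrays the short ones above background numbered 189, 202 and 202 in WT and 184, 204 and 198 in APP/PS1. Replicate 1 had the fewest in both genotypes. The median processed signal of the short circRNAs before normalization was 38.3, 38.4 and 33.9 for WT and 33.0, 46.7 and 43.8 for APP/PS1, by replicate. No spot of a short circRNA was saturated or marked as an outlier.

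The brightness of a spot depends on its probe as well as on its RNA, so signal is given as a property of the spots and not as abundance. The median over the 204 short circRNAs of the mean signal of 6 arrays was 5.28, with quartiles of 4.22 and 6.93, and the median over the longer ones was 5.19. The gap between those medians was 0.09, and it moved with the settings, to 0.32 with a limit of 200 nt, 0.29 with 250 nt, 0.0129 with 400 nt, 0.23 with all 6 arrays required above background and 0.0258 with the normexp correction. Within single arrays of the main fit the gap was 0.15, 0.11 and 0.04 in WT and -0.04, 4.9e-05 and 0.07 in APP/PS1. The gap thus differed in sign between arrays, and its SD between arrays of a genotype, pooled, was 0.06. Across the 1339 exonic circRNAs the Spearman correlation of length with mean signal was -0.01, and across the 204 short ones it was -0.04.

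**Figure D2:**
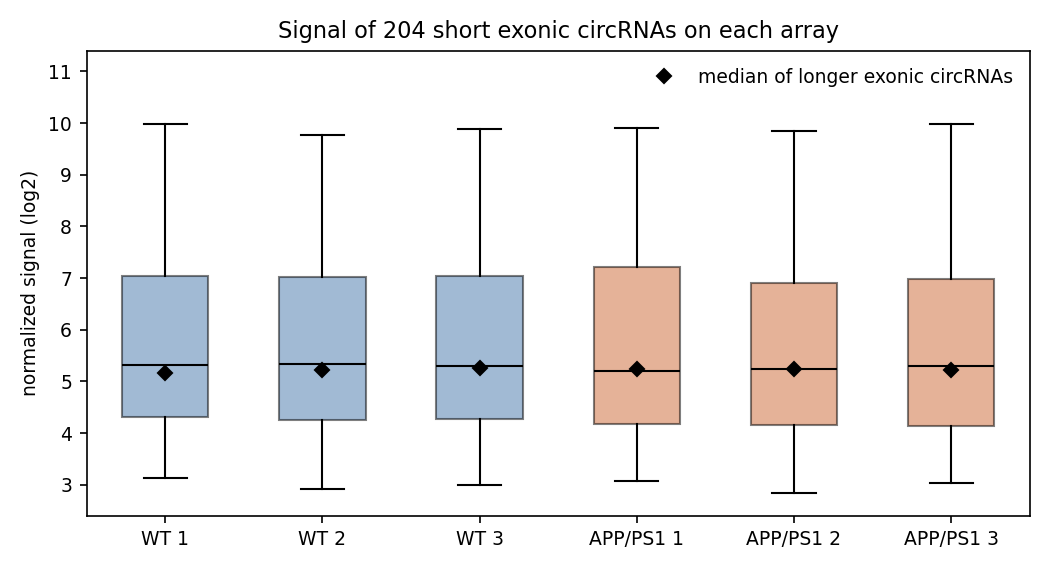
Normalized log2 signal of the 204 short exonic circRNAs on each of the 6 arrays, with boxes for the quartiles, lines for the medians and whiskers for the 5th and 95th percentiles; black diamonds are the medians of the 1135 longer exonic circRNAs. The medians of the short ones lie between 5.19 and 5.33 on all arrays.

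By length class, the median signal of the short circRNAs was 5.02 at up to 150 nt, 5.54 from there to 200 nt, 5.43 from there to 250 nt and 4.99 above that. The medians had no steady order by length. Those with a span equal to their length had a median of 5.31, and the other 181 had 5.27. The 43 short circRNAs from circBase had a median of 5.97 and the other 161 had 5.10. Among the longer ones the order was the opposite, with 5.12 for circBase and 5.19 for the rest.

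The brightest spot belonged to circZfp426 (mmu_circRNA_43813, 291 nt), from a zinc finger gene. It gave 14.97, 15.45 and 15.65 in WT and 15.65, 15.90 and 15.46 in APP/PS1, with overlapping groups. CircShb (292 nt), from the gene of an adaptor of tyrosine kinase receptors, gave 13.39, 13.50 and 13.52 in WT and 13.52, 13.55 and 13.39 in APP/PS1. The difference for circShb was 0.02 ± 0.11 (SE), smaller than the spread between replicates. CircRel (233 nt) came from the gene of a subunit of the inflammatory transcription factor NF-kappaB. Its values were 11.56, 11.92 and 11.89 in WT and 11.99, 12.09 and 11.98 in APP/PS1. Every APP/PS1 value lay above every WT value, but the difference of 0.23 ± 0.13 (SE) had an adjusted p of 0.415 in limma, and with the authors' values it was 0.45, also not called. The next brightest were circElovl5 (254 nt), circRaver1 (219 nt), circPpfia1 (201 nt), circTlk1 (294 nt), circTapt1 (234 nt), circSmad4 (288 nt) and circPrrc2c (195 nt), with mean signals between 10.36 and 11.69. Elovl5 elongates polyunsaturated fatty acids and Smad4 is the common mediator of TGF-beta signalling. The differences of these 7 lay between -0.22 and 0.19, and none passed the thresholds.

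Of the rings with a span equal to their length, those with the brightest spots after circPpfia1 came from Ap3m2, Man2a2, Chd1 and Pantr1. CircAp3m2 (172 nt), from an adaptor gene of vesicle coats, had a mean signal of 9.88 and a difference of -0.12 ± 0.16 (SE). CircMan2a2 (145 nt), from a Golgi mannosidase gene, had a mean of 8.92 and a difference of 0.07 ± 0.11 (SE). CircChd1 (179 nt), from a chromatin remodeler gene, had a mean of 8.85 and a difference of -0.08 ± 0.11 (SE). All 4 had overlapping genotypes.

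The comparison of APP/PS1 with WT asks which circRNAs of cortical microglia differ in amyloid model mice. With limma thresholds of 1.5 for the fold change and 0.05 for the unadjusted p, 6 of the 204 short circRNAs (2.94%) were higher in APP/PS1 and 4 (1.96%) were lower. Over all 13420 circRNAs the shares were 3.15% higher and 2.26% lower, and over the longer exonic circRNAs they were 2.38% and 1.94%, so the short ones stood near the background. At an unadjusted p of 0.05 and any fold, 34 short circRNAs passed (16.7%), against 17.8% of all circRNAs and 18.1% of the longer exonic ones. After Benjamini-Hochberg adjustment over all 13420, limma called 0 short circRNAs, and the lowest adjusted p was 0.124. The methods' t-test also called 0 after adjustment.

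The values of the WT and APP/PS1 arrays did not overlap in 51 short circRNAs (25%), 23 higher and 28 lower in APP/PS1, against 25.1% of all circRNAs and 24.1% of the longer exonic ones. The median log2 difference of the short circRNAs was -0.04, of the longer ones -0.02 and of all circRNAs -0.01. With 75th percentile scaling these were -0.10, -0.07 and -0.05, and without single arrays the short ones had between -0.07 and -0.02. The difference was positive in 89 of the 204 (43.6%), against 47.4% of the longer ones. The median of the short circRNAs on the single arrays was 5.32, 5.33 and 5.29 in WT and 5.19, 5.23 and 5.30 in APP/PS1, with APP/PS1 replicate 3 inside the range of the WT arrays. All differences lay between -0.96 and 0.89.

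**Figure D3:**
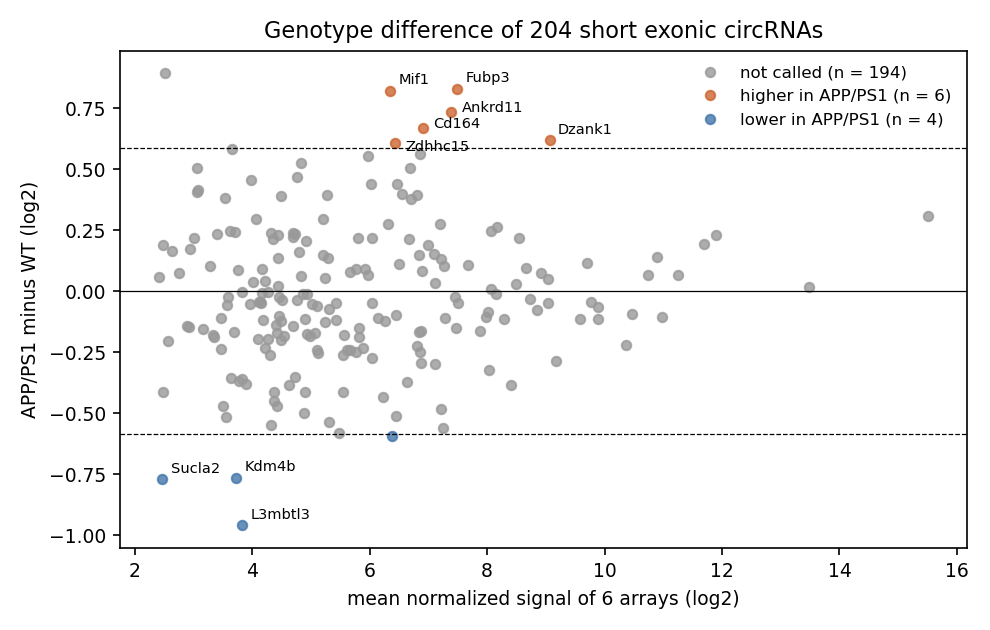
APP/PS1 minus WT log2 difference (vertical axis) against the mean normalized log2 signal of 6 arrays (horizontal axis) for the 204 short exonic circRNAs; dashed lines mark a fold change of 1.5. The 6 called higher have mean signals of 6.34 to 9.06, and 3 of the 4 called lower have mean signals of 2.47 to 3.83.

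Counts of calls moved with the processing. With the authors' processed values 5 short circRNAs were higher and 0 lower in limma, against shares of 1.59% higher and 0.775% lower over all circRNAs. With scaling to the 75th percentile, 5 were higher and 9 lower, and over all circRNAs more were lower (422) than higher (331), the reverse of the order after quantile normalization. The number lower was 2 without WT replicate 1, 7 without WT replicate 2 and 7 without APP/PS1 replicate 3, where 234, 399 and 347 of all 13420 circRNAs were lower. The number higher was 10 without APP/PS1 replicate 3, where 540 of all circRNAs were higher.

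CircFubp3 (mmu_circRNA_002696, 204 nt), from the gene of a protein that binds single-stranded nucleic acids, spanned 730 nt of chromosome 2, from 31604614 to 31605343. Its signal was 6.89, 7.19 and 7.15 in WT and 8.22, 7.82 and 7.69 in APP/PS1. All APP/PS1 values exceeded all WT values, most of all in replicate 1. The mean went from 7.08 ± 0.17 to 7.91 ± 0.27 (SD, n = 3 each). The log2 difference was 0.83 ± 0.17 (SE), a fold change of 1.78 with an adjusted p of 0.124 in limma. It passed both thresholds under all 17 alternatives to the processing, with differences between 0.64 and 0.93.

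CircAnkrd11 (mmu_circRNA_43580, 237 nt) came from the gene of a chromatin regulator that recruits histone deacetylases, and spanned 1808 nt of chromosome 8, from 122885650 to 122887457. Its values were 7.09, 7.02 and 6.97 in WT and 8.05, 7.70 and 7.54 in APP/PS1. The WT values were close together, and the APP/PS1 values were all higher. The difference was 0.74 ± 0.15 (SE), a fold change of 1.66 (adjusted p 0.124, limma). CircCd164 (mmu_circRNA_21878, 201 nt) came from the gene of a sialomucin of endosomes and the cell surface, on chromosome 10, from 41521918 to 41524145. Its values were 6.43, 6.68 and 6.63 in WT and 7.18, 7.34 and 7.21 in APP/PS1. The groups were separate, and the difference was 0.67 ± 0.12 (SE), a fold change of 1.59 (adjusted p 0.124, limma). Both circRNAs missed the fold threshold under 1 alternative, a normexp background correction with an offset of 50, at 0.52 each.

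A circRNA of 188 nt annotated to Mif1 (mmu_circRNA_018846), a name that RefSeq did not match, spanned 388 nt of chromosome 10, from 82368571 to 82368958. Its values were 5.48, 6.06 and 6.25 in WT and 6.69, 6.90 and 6.68 in APP/PS1. WT replicate 1 was the lowest, and the groups were separate. The difference was 0.82 ± 0.20 (SE), a fold change of 1.77 (adjusted p 0.131, limma), and it was 0.53 with the normexp correction. CircZdhhc15 (mmu_circRNA_45661, 216 nt), from a palmitoyltransferase gene, was the only one of these from chromosome X, from 104588301 to 104598186. Its values were 6.25, 6.19 and 5.93 in WT and 6.66, 6.86 and 6.68 in APP/PS1, which were separate. The difference was 0.61 ± 0.13 (SE), a fold change of 1.52 (adjusted p 0.124, limma), and 6 alternatives were short of the fold threshold. These were 0.57 with 75th percentile scaling, 0.54 without APP/PS1 replicate 2, 0.52 without WT replicate 3, 0.38 with the authors' values, 0.37 with the median spot signal left uncorrected and 0.29 with the normexp correction.

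CircDzank1 (mmu_circRNA_34711, 271 nt), from the gene of a zinc ribbon and ankyrin repeat protein, spanned 3284 nt of chromosome 2, from 144522413 to 144525696. Its values were 8.91, 8.73 and 8.62 in WT and 9.91, 9.15 and 9.06 in APP/PS1. The groups were separate, but APP/PS1 replicate 1 stood well above the others. The difference was 0.62 ± 0.23 (SE), a fold change of 1.53 (adjusted p 0.231, limma), and it was 0.35 without that array. Without WT replicate 2 or 3 it was 0.61 and 0.55, with unadjusted limma p-values of 0.0691 and 0.0878, and the call was also lost in the methods' t-test.

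CircL3mbtl3 (mmu_circRNA_21775, 274 nt) had the lowest unadjusted p of the short circRNAs, 4.3e-05 in limma. Its host gene encodes a reader of methylated histones, and it spanned 4607 nt of chromosome 10, from 26313847 to 26318453. Its values were 4.42, 4.25 and 4.26 in WT and 3.43, 3.30 and 3.33 in APP/PS1. Replicates lay close together in both genotypes and the groups were far apart. The mean went from 4.31 ± 0.10 to 3.35 ± 0.07 (SD, n = 3 each), a log2 difference of -0.96 ± 0.11 (SE) with an adjusted p of 0.124 in limma. The difference was -0.35 with the authors' values, -0.35 with the median spot signal left uncorrected and -0.19 with the normexp correction. Under each of these its fold change was under 1.5 and the call was lost. The spot was dim, though well above background on all 6 arrays. Its uncorrected median signal was 56, 39 and 37 in WT and 41, 35 and 33 in APP/PS1, over local backgrounds of 13 to 23.

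CircKdm4b (mmu_circRNA_30656, 292 nt), from a histone demethylase gene, spanned 6869 nt of chromosome 17, from 56369123 to 56375991. Its values were 4.34, 4.13 and 3.86 in WT and 3.07, 3.26 and 3.72 in APP/PS1, with 2 of those 3 spots well above background. The groups were separate by a small margin. The difference was -0.76 ± 0.20 (SE; adjusted p 0.14, limma). It fell short of the fold threshold under 3 alternatives, at -0.35 with the median spot signal left uncorrected, -0.32 with the authors' values and -0.16 with the normexp correction. CircSucla2 (mmu_circRNA_27796, 263 nt) came from the gene of a subunit of succinyl-CoA synthetase, an enzyme of the citric acid cycle. Its values were 3.43, 2.38 and 2.75 in WT and 2.45, 2.01 and 1.79 in APP/PS1, with 1 of those 3 spots well above background. The groups overlapped. The difference was -0.77 ± 0.29 (SE; adjusted p 0.231, limma), and it shrank to -0.18 with the median spot signal left uncorrected, -0.13 with the authors' values and -0.05 with the normexp correction. The call was also lost in the methods' t-test and with the trend and robust settings of eBayes. Without WT replicate 1 or APP/PS1 replicate 3 the difference was -0.46 and -0.63, with unadjusted limma p-values of 0.0779 and 0.102. Without WT replicate 3 or APP/PS1 replicate 2 it stayed as large, at -0.84 and -0.78, with unadjusted limma p-values of 0.0529 and 0.0751.

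An exact two-sided permutation test gave p = 0.1, the smallest value that 3 samples against 3 allow, for each called circRNA with separate groups, and p = 0.2 for circSucla2.

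**Figure D4:**
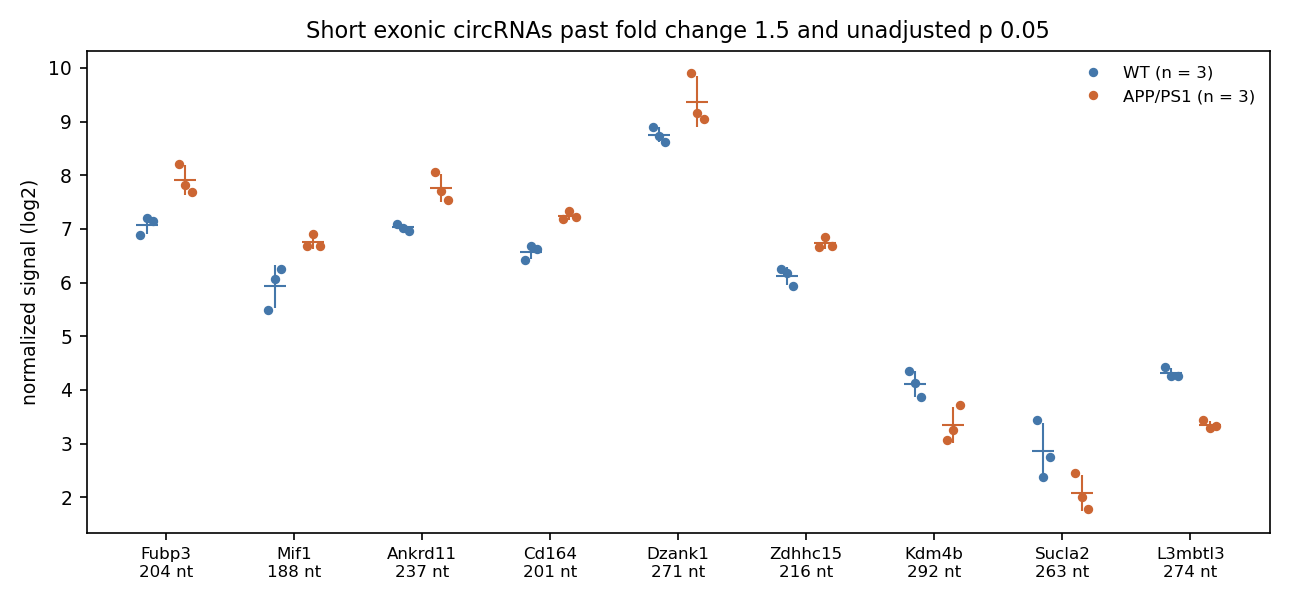
Normalized log2 signal of 9 short exonic circRNAs past both thresholds of fold change and unadjusted p, with 1 point per sample and bars for the mean and SD of 3 samples. WT (blue) and APP/PS1 (orange) values are separate in all but circSucla2.

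By length class, from the shortest to the longest, 0 of 13, 1 of 41, 4 of 63 and 1 of 87 short circRNAs were called higher, or 0%, 2.44%, 6.35% and 1.15%, against 3.15% of all circRNAs. Called lower were 1 of 13, 0 of 41, 0 of 63 and 3 of 87, or 7.69%, 0%, 0% and 3.45%, against 2.26% of all circRNAs. The Spearman correlation of length with log2 difference across the 204 was 0.05. The largest difference in signed size, 0.89 ± 0.50 (SE), belonged to circZdhhc20 (224 nt), named after its values were seen, and had an unadjusted limma p of 0.114. Its spot was dim, with 0.90, 2.32 and 2.99 in WT and 3.41, 2.72 and 2.75 in APP/PS1. The spot was well above background on 2 of the 3 WT arrays, and the difference was 0.22 with the authors' values. WT replicate 1 was far below the other values.

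The circRNA of App, the mouse gene of the transgene's protein, was mmu_circRNA_29981, a ring of 168 nt with a span of 168 nt. Its values were 7.20, 6.84 and 6.74 in WT and 7.29, 6.47 and 6.52 in APP/PS1. Replicate 1 was the highest in both genotypes, and the groups overlapped. The difference was -0.17 ± 0.24 (SE), with an adjusted p of 0.777 in limma. Whether the probe can bind transgene RNA was not tested.

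Host genes of chromatin proteins and transcription cofactors gave 19 short circRNAs, of which circAnkrd11 was called higher and circL3mbtl3 and circKdm4b were called lower, against 3.15% higher and 2.26% lower of all circRNAs. In all 5 of 19 passed an unadjusted p of 0.05 in limma, against 17.8% of all circRNAs. Of these, 2 did so without the fold threshold. One was the 219 nt circle of Tada2a and the other was circAdnp (288 nt), from a gene of a neuroprotective homeobox protein. CircAdnp gave 7.07, 6.66 and 6.74 in WT and 6.32, 6.38 and 6.63 in APP/PS1, a difference of -0.37 ± 0.15 (SE). The median difference of the list was -0.08, and -0.02 with the median spot signal left uncorrected, and 9 of 19 differences were positive in both. With 75th percentile scaling 7 of 19 were positive, and with normexp or the authors' values 8 of 19. Its brightest spots after circChd1 and circAnkrd11 belonged to circUhrf2, from a ubiquitin ligase gene that reads modified DNA, at 7.08, 7.17 and 7.20 in WT and 7.26, 7.28 and 7.30 in APP/PS1.

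Transcription factor genes gave 17 short circRNAs, none called, against 3.15% higher and 2.26% lower of all circRNAs. The 2 that passed an unadjusted p of 0.05 in limma, out of 17 and against 17.8% of all circRNAs, were both lower in APP/PS1. CircTcf4 (159 nt), from a basic helix-loop-helix gene, gave 5.94, 5.52 and 5.85 in WT and 5.19, 5.22 and 5.16 in APP/PS1. Its APP/PS1 values were tightly grouped below the WT values, and the difference of -0.58 ± 0.14 (SE) was just short of the fold threshold. CircZeb2 (142 nt), from a repressor gene that also shapes microglial identity, gave 6.73, 6.26 and 6.32 in WT and 5.90, 5.82 and 6.29 in APP/PS1. The groups overlapped, and the difference was -0.43 ± 0.18 (SE). With the authors' values the difference of circZeb2 was -0.15, with an unadjusted limma p of 0.192, which did not pass. The median difference of the list was -0.06, with 8 of 17 positive, and it was -0.12 with 75th percentile scaling, with 7 of 17 positive.

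Genes of RNA processing and RNA-binding proteins gave 16 short circRNAs, and 1, circFubp3, was called higher, against 3.15% of all circRNAs. An unadjusted p of 0.05 in limma was passed by 3 of 16, against 17.8% of all circRNAs. CircDhx9 (274 nt) came from the gene of an RNA helicase that is known to unwind the paired introns that favour back-splicing. It gave 6.48, 6.57 and 6.66 in WT and 7.57, 6.87 and 6.95 in APP/PS1. The groups were separate, with APP/PS1 replicate 1 the highest, and the difference of 0.56 ± 0.19 (SE) missed the fold threshold. CircZcchc17 (247 nt), from the gene of a nucleolar zinc finger protein, gave 7.48, 7.40 and 7.69 in WT and 6.96, 7.17 and 6.76 in APP/PS1. Its difference was -0.56 ± 0.15 (SE), also short of the fold threshold. The median difference of the list was 0.01, but -0.01 with scaling to the 75th percentile. CircInts9 (256 nt), from a gene of the Integrator complex, had a mean signal of 9.77 and a difference of -0.04.

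Kinase signalling genes gave 15 short circRNAs, 0 called, against 3.15% higher and 2.26% lower of all circRNAs. Of the 15, circStk39 alone passed an unadjusted p of 0.05 in limma, against 17.8% of all circRNAs. CircStk39 (284 nt), from a kinase gene of ion transport and stress signalling, gave 6.52, 6.12 and 6.08 in WT and 6.68, 6.82 and 6.53 in APP/PS1. The values were separate by a narrow margin, and the difference was 0.44 ± 0.16 (SE). The brightest spots of the list, of circTlk1, circItpkc (174 nt) and circMark4 (220 nt), had differences of 0.14, 0.05 and -0.05. Tlk1 is a nuclear kinase of chromatin assembly, and Mark4 phosphorylates microtubule-associated proteins.

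The ubiquitin pathway list held 7 short circRNAs, 0 called, against 3.15% higher and 2.26% lower of all circRNAs. Of the 7, 1 passed an unadjusted p of 0.05 in limma, against 17.8% of all circRNAs. This was circRnf138 (285 nt), from a ubiquitin ligase gene of DNA repair, with 8.69, 8.50 and 8.63 in WT and 8.31, 8.44 and 7.92 in APP/PS1. The brightest others, circHectd3 (248 nt) and circUbl3 (274 nt), had differences of -0.13 and -0.03. Genes of vesicle traffic and lipid metabolism gave 15 short circRNAs, of which 0 were called, against 3.15% higher and 2.26% lower of all circRNAs, and 0 passed an unadjusted p of 0.05 in limma, against 17.8%. Their median difference was -0.12, with 5 of 15 positive, and it was -0.04 with the normexp correction, with 6 of 15 positive. CircCers6 (144 nt), from a ceramide synthase gene, had a mean signal of 8.17 and a difference of 0.26.

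Neuronal and synaptic genes gave 12 short circRNAs, 0 called, against 3.15% higher and 2.26% lower of all circRNAs. Of the 12, 2 passed an unadjusted p of 0.05 in limma, 1 in each direction, against 17.8% of all circRNAs. CircDpysl3 (299 nt), from a gene of axon guidance, gave 6.45, 6.65 and 6.74 in WT and 7.07, 6.90 and 7.05 in APP/PS1. CircDtnbp1 (266 nt), from the gene of dysbindin, a protein of endosomal sorting, gave 4.64, 4.64 and 4.51 in WT and 4.27, 4.06 and 4.10 in APP/PS1. Both pairs of groups were separate, with differences of 0.39 ± 0.12 and -0.45 ± 0.11 (SE). The brightest spot was that of circNrcam, at 9.69, 9.64 and 9.60 in WT and 9.46, 9.84 and 9.98 in APP/PS1. CircReep1 (150 nt), from a gene of endoplasmic reticulum shape in axons, had a difference of -0.01. Genes of mitochondrial proteins gave 6 short circRNAs, of which circSucla2 was called lower, against 2.26% of all circRNAs, and the other 5 had no unadjusted p under 0.05 in limma, against 17.8% of all circRNAs with one. Among these, circMpc2 (197 nt), from a subunit gene of the pyruvate carrier, had a difference of -0.15, and circCoq3 (280 nt), from a gene of coenzyme Q synthesis, had a difference of 0.09.

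Marker host genes were used as a check of the cell label, although a circRNA is not the mRNA of its host. Of 18 microglial and macrophage genes, 4 hosted circRNAs among the 1734 annotated, namely Dock10, Ikzf1, Inpp5d and Sirpa, with 6 circRNAs, 3 of them short. None of the 6 was called, against 3.15% higher and 2.26% lower of all circRNAs. All 6 differences were negative after each of the 6 ways of scaling or background correction tried. Their median was -0.44 in quantile normalized values, -0.49 with 75th percentile scaling, -0.29 with the authors' values, -0.26 with the median spot signal left uncorrected and -0.20 with the normexp correction. Their summed linear signal was 444.7, 510.1 and 439.4 in WT and 431.4, 251.7 and 387.4 in APP/PS1. APP/PS1 replicate 2 had the lowest sum by far, so the median rests in part on that array. The median without it was not computed. The list holds both Ikzf1 spots that were annotated to nearly the same junction. The brightest was from Inpp5d, a phosphatase gene. Of 16 neuronal genes, 6 hosted 7 circRNAs, 2 of them short, with a median difference of 0.04, but -0.03 with scaling to the 75th percentile. Their summed signal was 1069, 1419 and 1296 in WT and 1434, 1222 and 1250 in APP/PS1, and circNrcam was the brightest. Astrocyte genes hosted 3 circRNAs, with sums of 609.4, 551.1 and 497.0 in WT and 496.4, 530.7 and 588.4 in APP/PS1. The only oligodendrocyte gene, Vcan, hosted 1, with 40.8, 38.9 and 48.1 in WT and 40.7, 43.5 and 30.9 in APP/PS1. Whether a shift in cell types has a part in the differences of the short circRNAs was not tested.

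The 3 short circRNAs of microglial marker genes were those of Sirpa, Ikzf1 and Dock10. Sirpa encodes an inhibitory receptor of phagocytes, and its 191 nt circle gave 5.78, 5.71 and 5.75 in WT and 5.59, 5.08 and 5.33 in APP/PS1. The groups were separate, with a difference of -0.41 ± 0.15 (SE) and an adjusted p of 0.214 in limma. Ikzf1 encodes a transcription factor of blood cell lineages, and its 174 nt circle gave 6.59, 6.83 and 6.68 in WT and 6.40, 5.65 and 6.51 in APP/PS1. APP/PS1 replicate 2 was far below replicates 1 and 3, which lay just under the WT values. The difference was -0.51 ± 0.23 (SE), with an adjusted p of 0.305 in limma, and rests largely on that array. CircDock10 (293 nt) gave 5.43, 5.27 and 5.31 in WT and 5.21, 5.20 and 5.38 in APP/PS1, with overlapping groups.

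Some short circRNAs could be set beside another circRNA of the same place. Of the 204, 27 overlapped another annotated circRNA on the same strand, in 27 pairs. In 3 pairs both ends lay within 2 nt of each other, so that 2 spots were annotated to nearly the same junction, and in 13 pairs 1 end was shared within 2 nt. For Ikzf1 the spot with nearly the same ends was annotated as sense overlapping and gave 6.25, 6.63 and 6.32 in WT and 6.24, 5.36 and 6.31 in APP/PS1. APP/PS1 replicate 2 was the lowest on both spots, with differences of -0.51 and -0.43. For Mtss1 the differences were -0.12 and -0.23. For Snord15a, whose ring lies in an intron of the ribosomal protein gene Rps3, they were 0.40 ± 0.32 and -0.18 ± 0.19 (SE), of opposite sign and both within their spread.

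Of the 13 pairs with 1 shared end, the 2 differences had the same sign in 6. The ring of 188 nt annotated to Mif1, called higher, shared its start with a ring of 270 nt that spanned 15274 nt. The longer ring gave 2.63, 2.91 and 3.33 in WT and 2.79, 3.05 and 2.59 in APP/PS1, with 1 of those 3 spots well above background, and its difference was -0.14 ± 0.21 (SE). Tada2a encodes an adaptor of histone acetyltransferase complexes and hosted rings of 219 and 291 nt with the same end. The ring of 219 nt gave 6.38, 6.54 and 6.61 in WT and 7.0, 6.77 and 6.89 in APP/PS1. The ring of 291 nt gave 4.45, 4.49 and 4.38 in WT and 4.02, 4.19 and 4.32 in APP/PS1. Each was separate by genotype, the first upward at 0.38 ± 0.12 (SE) and the other downward at -0.26 ± 0.12 (SE).

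Klhdc1, a gene of a kelch repeat protein, showed a like pattern. Its ring of 211 nt gave 4.37, 4.71 and 4.65 in WT and 5.15, 5.20 and 4.96 in APP/PS1, and its ring of 938 nt gave 6.76, 6.64 and 6.59 in WT and 6.46, 6.62 and 6.51 in APP/PS1. The differences were 0.52 ± 0.14 and -0.13 ± 0.11 (SE), and the longer ring overlapped between genotypes. The ring of 247 nt of Zcchc17 had a difference of -0.56, while the ring of 440 nt with the same start had -0.05 ± 0.12 (SE). CircShb and its ring of 629 nt had 0.02 each. Dtnbp1 and Rnf138 had negative differences for both rings, with -0.26 for the 432 nt ring of Dtnbp1 and -0.17 for the 451 nt ring of Rnf138.

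The difference between the rings of a pair was itself compared by genotype, as the log2 ratio within each array. The ratio changed by 0.64 for Tada2a, 0.66 for Klhdc1 and -0.51 for Zcchc17. For Mif1 no change is given, as the spot of its longer ring was well above background on 3 of 6 arrays. These ratios were among 11 of the 27 whose exact permutation p was 0.1, the smallest that 3 samples against 3 allow. The test could thus not set pairs apart from each other or pass any at 0.05. A p of 0.1 means that the groups did not overlap, which single circRNAs did in 25.1% of all circRNAs. No such share was computed for ratios of other pairs. The short rings of Ezh2, Stau2 and Pafah1b2 each stood in more than 1 pair. The host genes with more than 1 short circRNA were Tada2a, Mif1, Stx18 and 9130011E15Rik, which RefSeq names Armh3. Stx18, a gene of vesicle fusion at the endoplasmic reticulum, had rings of 210 and 299 nt with differences of -0.24 ± 0.17 and -0.47 ± 0.34 (SE), and the ring of 299 nt was well above background on 2 of the 3 APP/PS1 arrays. The rings of 9130011E15Rik, of 204 and 286 nt, had -0.25 and -0.38, and both were separate by genotype.

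**Figure D5:**
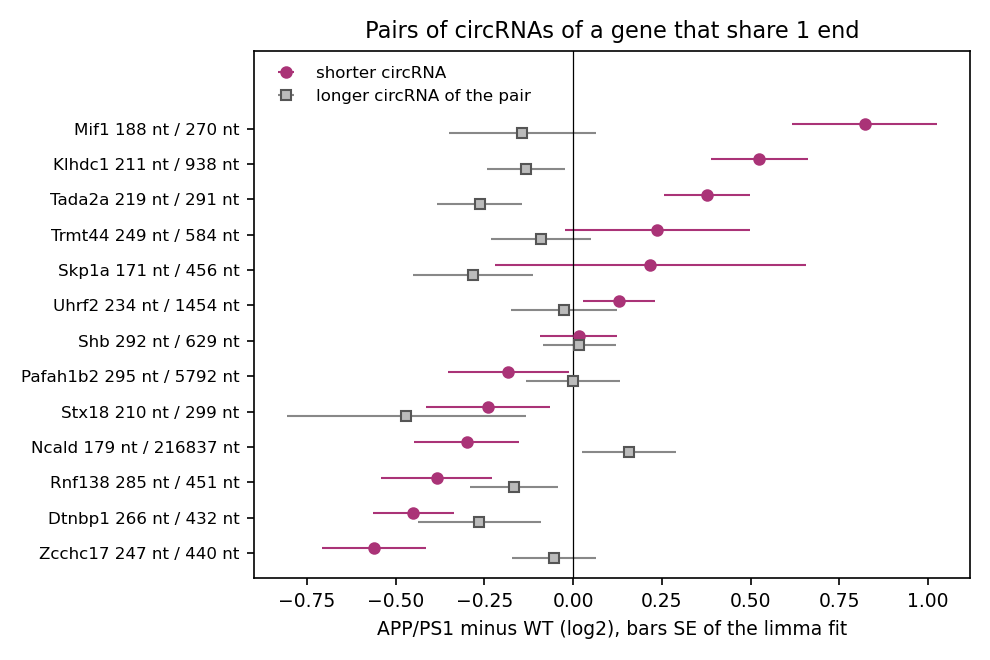
APP/PS1 minus WT log2 difference, with bars for the SE of the limma fit, of 13 pairs of circRNAs that share 1 end within 2 nt; circles are the shorter and squares the longer ring of a pair. In 6 of the 13 pairs the shorter ring lies right of 0 and the longer ring left of it.

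On both sides of the length threshold the values were mixed. The 6 short circRNAs nearest the threshold of 300 nt came from Zfp827, Pip5k1c, Dlst, Lifr, Dpysl3 and Stx18, and had mean signals from 3.5 to 7.67 and differences from -0.47 to 0.39. The 11 exonic circRNAs at most 3 nt above the threshold, which include those of Scaf4, Klhdc10 and Smarcc2, had mean signals from 3.54 to 9.54 and differences from -0.52 to 0.16. None of these was called.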

How the data were processed

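Spot intensity values were extracted by the authors with Feature Extraction 11.0.1.1 and deposited per array, not normalized, beside marks of background and quality. The authors' own log2 values, deposited as a table, are quantile normalized according to the methods. Here, R 4.3.3 and limma 3.58.1 were used. The background-corrected processed signal was log2 transformed, outlier spots were left out, circRNAs well above background on at least 3 of 6 arrays were kept, and quantile normalization was applied. The test of genotype was lmFit with eBayes, with Benjamini-Hochberg adjustment over 13420 circRNAs. Names, types, lengths and positions came from the study's annotation of detected circRNAs, held in its first 1734 rows, and host genes from RefSeq (GRCm38.p6). The short circRNAs and the host gene lists were chosen with earlier results of these data known. The circRNAs of 2 host genes are not reported here, and 1 other circRNA enters the counts alone.

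The limits are as follows. A group has 3 samples, so an exact test cannot go below 0.1, and no short circRNA passed adjustment. Each circRNA has 1 spot, so spot error was not measured, and dim spots depend most on background correction. Genotype and slide row coincide. The annotation held is a part of the whole, and shares of short and longer exonic circRNAs apply to the rows held. Shares of all circRNAs are over the 13420 tested. Length and position are as annotated and were not measured. A host gene's circRNA is not its mRNA, and no linear RNA was measured after RNase R.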

Additional observations from a re-analysis of the deposited data

How the results depend on the processing

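The main fit called 6 short circRNAs higher and 4 lower, with a median difference of -0.04 and a signal gap to longer exonic circRNAs of 0.09. The count lower moved most, and so did that of all circRNAs. It was 9 after scaling to the 75th percentile, where 422 of all circRNAs were lower. The median signal without background subtraction gave 0, where 90 of all were lower. A normexp correction (offset 50, on the median signal because the files hold no mean) gave 0, where 60 of all were lower. The authors' processed values gave 0, where 104 of all were lower. Requiring all 6 arrays above background gave 2 of 174, where 217 of all 11887 were lower. The methods' t-test gave 2, where 202 of all were lower. Lengths up to 200 or 250 nt gave 1 of 54 and 1 of 117, against 2.26% of all circRNAs. The count higher was 2 with normexp, where 133 of all 13420 circRNAs were higher. Up to 200 nt it was 1 of 54, against 3.15% of all circRNAs. The median difference was -0.10 with 75th percentile scaling, where the median of all circRNAs was -0.05, and it shrank to -0.02 with the authors' values, -0.02 with the uncorrected median signal and -0.01 with normexp. The gap was 0.0258 with normexp, 0.0378 with the uncorrected median signal, 0.0410 with the authors' values, 0.23 with all 6 arrays required, 0.32 up to 200 nt, 0.29 up to 250 nt and 0.0129 up to 400 nt. Leaving out 1 array at a time gave 5 to 10 higher and 2 to 7 lower, against 355 to 540 higher and 234 to 508 lower of all circRNAs. The median differences were then -0.07 to -0.02 and the gaps 0.05 to 0.14. Cyclic loess gave 6 higher and 3 lower, against 436 and 255 of all circRNAs. The trend and robust settings of eBayes gave 6 and 3, against 415 and 291 of all. With no filter, 6 and 4 were called, against 474 and 350 of all 14236 circRNAs. With 1 array required, 6 and 4 were called, against 467 and 330 of all 13908. With replicate number as a block, 6 were higher and 4 lower, against 444 and 305 of all circRNAs. The lowest adjusted p of a short circRNA in that limma fit was 0.268. Correlations of replicate deviations were -0.25, -0.08 and -0.22, none positive, and the main fit used no pairing. So few arrays cannot exclude one. Both arrays of replicate 1 lay in slide column 1, and both of replicate 2 in column 2. The median background was 20 (WT) and 18 (APP/PS1) on the arrays of replicate 1, and 14 to 15 on the others. An effect of the column apart from replicate number was not tested. A slide block was not run, since all arrays shared 1 slide. No short circRNA passed an adjusted p of 0.05 under any setting (lowest 0.0597, limma with trend and robust), and no called circRNA reversed its sign.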

Other observations

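Some short circRNAs overlapped a longer exonic circRNA of their gene without a shared end, and were looked at after the values were seen. Prom1 encodes prominin, a membrane protein of cell protrusions. Its ring of 275 nt gave 4.95, 4.88 and 4.63 in WT and 4.76, 5.17 and 5.13 in APP/PS1, and its ring of 948 nt gave 4.32, 4.16 and 4.30 in WT and 3.88, 3.41 and 3.90 in APP/PS1. The shorter ring overlapped between genotypes and the longer one was separate, with differences of 0.21 ± 0.16 and -0.53 ± 0.16 (SE). Map3k3 encodes a kinase of stress signalling. Its ring of 214 nt gave 5.06, 5.03 and 5.22 in WT and 5.02, 4.36 and 4.69 in APP/PS1, which were separate, and its ring of 498 nt had a difference of 0.11 ± 0.12 (SE). Ezh2 encodes a histone methyltransferase, and its ring of 262 nt gave 3.90, 4.12 and 4.33 in WT and 4.17, 4.12 and 4.32 in APP/PS1, with overlapping groups. None of these rings was called in limma.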
